A study of Mus musculus with 35 samples.

Results

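The 10 genes described here were listed under maternal mRNA storage and translation repressors: Ybx2, Cpeb1, Zar1, Zar1l, Lsm14a, Lsm14b, Ddx6, Eif4e1b, Eif4enif1 and Pabpc1l. That name describes the list, and a repressive role of each product was not tested. The genes were taken by gene name from a table of fragment counts on 24480 mouse genes. No measured value set the list, but it was chosen with earlier results of these data known. All 10 were present in the table, and all 10 passed the filter on low counts in each comparison. RNA was sequenced from 35 samples of C57BL/6NRj wild-type embryos from dams of 3 to 4 weeks and studs of 8 weeks to 8 months: 10 control zygotes, 10 Kdm5b zygotes, 9 control 2-cell (2C) samples and 6 Kdm5b 2C samples. Kdm5b samples received about 1150 ng/µl Kdm5b-yfp mRNA, which encodes a demethylase of histone H3 lysine 4 fused to a yellow fluorescent protein, and controls received water, so injection of an mRNA as such and the KDM5B protein cannot be told apart. Zygotes were injected in S phase and collected 17 h after ovulation. The 2C embryos came from cryopreserved and thawed zygotes, were injected in both blastomeres in G1 phase, and were collected 5.5 to 8 h after division. Zygote and 2C libraries were prepared on different days. Stage, library day and thawing therefore cannot be told apart in any value below that sets 2C samples against zygotes. Each zygote sample was a single zygote, and 11 of the 15 2C samples were single intact embryos. The other 4 were pools of blastomeres from 2 or 3 embryos that had only a single intact cell after injection. As no added reference RNA is described, every level is relative to the other RNAs of the sample.

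A growing oocyte makes a large store of mRNAs and then stops transcription, so meiosis, fertilization and the first division depend on when the stored messages are translated, lengthened or shortened at the poly(A) tail, and destroyed. CPEB1 binds a U-rich cytoplasmic polyadenylation element in 3′ untranslated regions, and YBX2 (MSY2) coats maternal mRNAs and stabilizes them. ZAR1 and ZAR1L are zinc-finger proteins that bind maternal mRNAs. LSM14A, LSM14B, the RNA helicase DDX6 and the eIF4E-binding protein 4E-T, the product of Eif4enif1, are found together in repressed ribonucleoprotein particles. EIF4E1B is an oocyte form of the cap-binding protein, and PABPC1L is the poly(A)-binding protein of oocytes and early embryos. The library kit primes at random along total RNA, so a long poly(A) tail was not needed for capture.

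Library size was 8705584 to 17797581 assigned fragments per sample. Kdm5b itself, removed from the table before normalization, took 2.30% to 15.8% of the fragments in injected samples and at most 0.0189% in controls. The labelled cells were checked against marker lists. The 6 oocyte markers summed to 6288 to 11579 TPM (a length-normalized share of the transcripts of a sample) over all groups, and the 6 2-cell markers to 2.06 to 25.0 TPM in zygotes against 95.5 to 590.5 TPM in 2C samples. The 8 cumulus and granulosa cell markers summed to at most 15.7 TPM, and the 4 sperm markers to at most 68.1 TPM. All 8 cumulus and granulosa cell markers had counts in some sample of each zygote group, 6 in control 2C and 7 in Kdm5b 2C samples. Amh was at 0 in all 2C samples. Of the sperm markers 2 had counts in each control group and 3 in each Kdm5b group, with Tnp2 at 0 throughout. Control 2C replicates 2 and 3 had counts on fewer genes (11840 and 12154) than the other 7 control 2C samples (13854 to 15300).

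The 10 mRNAs together made up 0.683% of all TPM in control zygotes and 0.543% in control 2C samples. The sum was 6828 ± 284 TPM (SD, n = 10) in control zygotes, 6972 ± 281 TPM (n = 10) in Kdm5b zygotes, 5426 ± 754 TPM (n = 9) in control 2C samples and 5541 ± 664 TPM (n = 6) in Kdm5b 2C samples. TPM divides counts by the summed exon length of a gene, not by the length of the transcript form present, so comparison between genes is approximate. In control zygotes the order by mean level was Eif4e1b, Lsm14a, Lsm14b, Eif4enif1, Zar1l, Zar1, Ybx2, Pabpc1l, Cpeb1 and Ddx6. Eif4e1b stood 48th among 19493 genes with a mean above 0, at 1554 ± 84.3 TPM, and every control zygote held more of it than of Lsm14a, the next. The ranges of neighbours from Lsm14a to Ybx2 overlapped, and Zar1l exceeded Zar1 in only 5 of the 10 zygotes. Below Ybx2, each step down the order (Pabpc1l, Cpeb1, Ddx6) fell outside the range of the gene above. Ddx6, the helicase, was the lowest at 16.2 ± 2.07 TPM, 6504th of the genes. In control 2C samples Lsm14a (1322 ± 141 TPM) and Eif4e1b (1251 ± 244 TPM) headed the order with overlapping ranges, Ybx2 came next, and Zar1, Pabpc1l, Zar1l, Cpeb1 and Ddx6 formed the lower end.

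**Figure D1:**
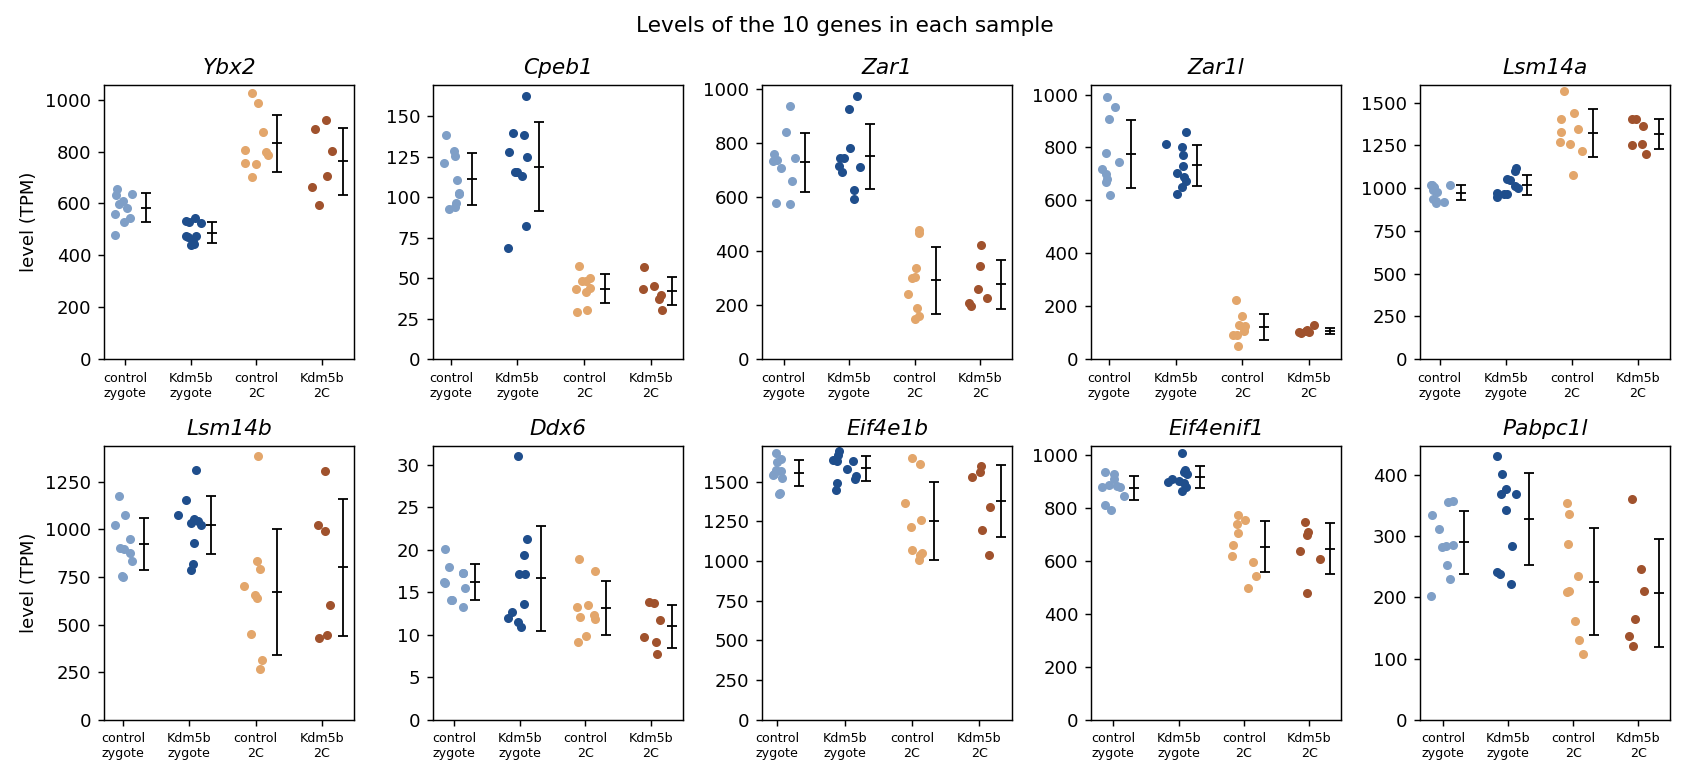
Level of each of the 10 genes (TPM, linear axes from 0) in every sample of the 4 groups; each point is 1 sample and the bar beside it the mean ± SD. Cpeb1, Zar1 and Zar1l of all 2C samples lie below all zygotes, Ybx2 and Lsm14a of the 2C samples lie above the zygotes of the same injection group, and Lsm14b spreads from 268 to 1384 TPM in control 2C samples.

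The members' own 3′ ends were searched for the element that CPEB1 binds, in its forms TTTTAT and TTTTAAT, and for the poly(A) signals AATAAA and ATTAAA, on the transcript strand only. All 10 genes matched a protein-coding transcript of GENCODE M21 (GRCm38). Only Ybx2 and Lsm14a held the element within the last 100 bases (2 of 10), against 17.9% of 19328 genes with a 3′ untranslated region at least that long. The annotated region of Zar1l, at 14 bases, was too short to search. A poly(A) signal in the last 40 bases was found for 8 of 10 members and for 73.6% of the genes. That share of members is near the share of all genes. The windows of 30 bases around both elements are shown, with the element and, for Lsm14a, the signal in capitals. Over the whole 3′ untranslated region the element matched in Ybx2 (1), Lsm14a (3), Cpeb1 (4), Lsm14b (2), Ddx6 (7) and Eif4enif1 (1). Zar1, Eif4e1b and Pabpc1l had 0 matches there, and 57.9% of the genes had the element somewhere in that region. Ybx2 and Lsm14a were the only members higher at the 2C stage, while Cpeb1 and Eif4enif1, which also hold the element, were lower. A link between element and level was not tested. The Ybx2 window lies at chr11:69941532-69941561 on the + strand and the Lsm14a window at chr7:34344661-34344690 on the - strand.
Ybx2: cctctgaagccaTTTTATgaactgtcatgt
Lsm14a: tgtTTTTAATaaaggccatggAATAAAgag
The Lsm14a element overlaps a further AATAAA that shares its last 3 letters. These matches describe the sequence alone, and binding was not measured.

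Counts were taken over all annotated exons of each gene (mm10). Zar1 (chr5:72577114-72581084, - strand) and Zar1l (chr5:150507069-150518159, - strand) lie apart on chromosome 5, each with 4 exons, Cpeb1 lies at chr7:81347026-81454758 (- strand, 12 exons), Ybx2 at chr11:69935899-69941599 (+ strand, 9 exons), Lsm14a at chr7:34344719-34389540 (- strand, 11 exons) and Lsm14b at chr2:180024987-180035461 (+ strand, 9 exons). Ddx6 lies at chr9:44604892-44640731 (+ strand), Eif4e1b at chr13:54783998-54788459 (+ strand), Eif4enif1 at chr11:3202353-3244588 (+ strand) and Pabpc1l at chr2:164025224-164050538 (+ strand). The Lsm14a window shown above lies wholly beyond the exon end used for counting, since the annotations differ at that end.

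The largest differences between the stages in controls were losses of Zar1l, Cpeb1 and Zar1, while Ybx2 and Lsm14a were higher at the 2C stage. With edgeR's quasi-likelihood test on counts and Benjamini-Hochberg adjustment over all 11968 genes tested, 2 members were higher and 5 lower at an adjusted p under 0.05, beside 26.8% and 25.4% of all genes. With an absolute log2 fold change over 1 added, 0 were higher and 3 lower, beside 9.2% and 13% of all genes. The median log2 fold change was -0.30 over the 10 members and 0.02 over all genes tested. The TPM ranges of the 2 stages did not overlap for 6 members, 2 higher (all genes 5.2%) and 4 lower (10.4%).

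Among the RNA-binding proteins with zinc fingers, Zar1l ran from 618 to 989 TPM in control zygotes (median 732) and from 49.4 to 224 TPM in control 2C samples (median 116). Every 2C sample lay below every zygote. The counts gave a 6.04-fold lower level (log2 fold change -2.59, SE 0.18, adjusted p = 3.21e-11). Zar1, the founding member of the family, ran from 576 to 938 TPM in control zygotes (median 736) and from 147 to 480 TPM in control 2C samples (median 301), again with no overlap. It was 2.36-fold lower (log2 fold change -1.24, SE 0.18, adjusted p = 2.23e-06). The ranges of Zar1 and Zar1l overlapped in control zygotes and in control 2C samples, with means of 728 and 776 TPM in zygotes and of 291 and 121 TPM at the 2C stage. Taken sample by sample, each control 2C sample held more Zar1 than Zar1l, whereas Zar1l was the higher in 5 of the 10 control zygotes.

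Cpeb1, the polyadenylation element-binding protein, ran from 92.8 to 138 TPM in control zygotes (median 107) and from 29.0 to 57.3 TPM in control 2C samples (median 43.7). No 2C sample reached the lowest zygote. It was 2.40-fold lower (log2 fold change -1.26, SE 0.12, adjusted p = 6.29e-09). Ybx2, the coat protein of stored mRNAs, went the other way, from 477 to 657 TPM in control zygotes (median 590.1) to between 703 and 1028 TPM in control 2C samples (median 799.9). All 9 control 2C samples lay above all 10 zygotes, a 1.52-fold difference (log2 fold change 0.60, SE 0.085, adjusted p = 1.54e-06).

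The genes for the LSM14, DDX6 and 4E-T particle differed in both directions. Lsm14a ran from 912 to 1018 TPM in control zygotes (median 984) and from 1079 to 1569.9 TPM in control 2C samples (median 1328). Its ranges did not overlap, and it was 1.45-fold higher (log2 fold change 0.53, SE 0.068, adjusted p = 3.31e-07). Its paralog Lsm14b had a log2 fold change of -0.38 (SE 0.20, 95% CI -0.79 to 0.03, adjusted p = 0.112), with 749 to 1173 TPM in control zygotes (median 901) and 268 to 1384 TPM in control 2C samples (median 654). Of the 9 control 2C samples, 6 lay below all zygotes and 1, replicate 5, above them all. Without that replicate the log2 fold change was -0.57 (adjusted p = 0.00695). Eif4enif1 ran from 792 to 936 TPM in control zygotes (median 879.9) and from 496 to 772 TPM in control 2C samples (median 660.1), without overlap, and was 1.26-fold lower (log2 fold change -0.33, SE 0.080, adjusted p = 0.00107). Against the 2C samples of index strip 11 alone, a set of 3 libraries described with Eif4e1b, the log2 fold change of Eif4enif1 was -0.17 (adjusted p = 0.0577). Ddx6, at 13.3 to 20.1 TPM in control zygotes (median 16.1) and 9.19 to 18.8 TPM in control 2C samples (median 12.4), had overlapping groups and a log2 fold change of -0.20 (SE 0.14, 95% CI -0.49 to 0.08, adjusted p = 0.219).

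Of the cap-binding and poly(A)-binding members, Eif4e1b ran from 1420 to 1678 TPM in control zygotes (median 1556) and from 1006 to 1647 TPM in control 2C samples (median 1213). Its log2 fold change was -0.23 (SE 0.086, adjusted p = 0.0264). This call rested on part of the 2C libraries. The labels give index numbers, which were grouped here into strips of 8, and the labels themselves name no strips. The 3 control 2C samples of strip 11 held 1365 to 1647 TPM while the 6 of strip 12 held 1006 to 1259 TPM. Against strip 11 alone the log2 fold change was 0.021 (adjusted p = 0.851), and with single intact embryos alone it was -0.14 (adjusted p = 0.237). Strip 12 also held all 3 pooled control samples, and strip 11 both control samples with counts on few genes (replicates 2 and 3), without which the log2 fold change was -0.32 (adjusted p = 0.00202). Pabpc1l ran from 202 to 357 TPM in control zygotes (median 285) and from 107 to 354 TPM in control 2C samples (median 210.2), and its groups overlapped (log2 fold change -0.27, SE 0.17, 95% CI -0.63 to 0.09, adjusted p = 0.200). The log2 fold change of Pabpc1l was 0.085 (adjusted p = 0.704) against strip 11 alone and -0.55 (adjusted p = 0.00987) against strip 12 alone.

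The Kdm5b samples gave a stage comparison on embryos of their own, with libraries made on the same 2 days. Of 12390 genes tested, 29.3% were higher and 29.5% lower at the 2C stage, and of the 10 members 2 were higher and 6 lower. With the fold threshold added the members were 0 higher (all genes 10.5%) and 3 lower (16%), the 3 being Cpeb1, Zar1 and Zar1l. As in controls, the ranges of 6 members did not overlap, 2 higher (all genes 9.52%) and 4 lower (16.5%). Zar1l ran from 623 to 858 TPM in Kdm5b zygotes (median 717) and from 97.0 to 129 TPM in Kdm5b 2C samples (median 104), a 6.34-fold lower level (log2 fold change -2.67, SE 0.099, adjusted p = 1.06e-15). Cpeb1 (68.9 to 163 TPM in zygotes, median 120.2, and 30.5 to 56.7 TPM at 2C, median 41.3) was 2.61-fold lower (log2 fold change -1.39, SE 0.16, adjusted p = 9.48e-08). Zar1 (592 to 974 TPM in zygotes, median 730.5, and 197 to 421 TPM at 2C, median 243) was 2.53-fold lower (log2 fold change -1.34, SE 0.14, adjusted p = 2.38e-08). The order of these 3 losses by size was that of the controls.

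The 2 members higher at the 2C stage were also the same in Kdm5b embryos. Ybx2 went from 439.9 to 544 TPM in Kdm5b zygotes (median 474) to between 593 and 922 TPM at 2C (median 754), and was 1.69-fold higher (log2 fold change 0.75, SE 0.10, adjusted p = 5.84e-07). Lsm14a (949.8 to 1115 TPM in zygotes, median 1005, and 1198 to 1405 TPM at 2C, median 1312) was 1.39-fold higher (log2 fold change 0.48, SE 0.073, adjusted p = 5.32e-06). Eif4enif1 was again lower and without overlap (864 to 1007 TPM in zygotes, median 903, and 477 to 745 TPM at 2C, median 666, log2 fold change -0.39, SE 0.087, adjusted p = 3.99e-04).

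The other 4 members had wide or small differences in Kdm5b embryos. Pabpc1l (221 to 431 TPM in zygotes, median 355, and 121 to 361 TPM at 2C, median 188) was 1.47-fold lower (log2 fold change -0.55, SE 0.19, adjusted p = 0.0169), and Ddx6 (10.8 to 31.0 TPM in zygotes, median 15.3, and 7.71 to 13.9 TPM at 2C, median 10.7) was 1.41-fold lower (log2 fold change -0.49, SE 0.20, adjusted p = 0.0342). Their groups overlapped. Both calls were lost when 2C replicate 5 was left out, with adjusted p = 0.0515 for Pabpc1l and 0.0752 for Ddx6, and that for Ddx6 also without zygote replicate 4, 7 or 8 or 2C replicate 3 or 6. Lsm14b (785 to 1313 TPM in zygotes, median 1041, and 432 to 1308 TPM at 2C, median 797) had a log2 fold change of -0.26 (SE 0.18, adjusted p = 0.206), which became -0.46 (adjusted p = 0.0214) without 2C replicate 3. Eif4e1b (1449 to 1691 TPM in zygotes, median 1604, and 1036 to 1597 TPM at 2C, median 1435) had a log2 fold change of -0.10 (SE 0.081, adjusted p = 0.304).

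**Figure D2:**
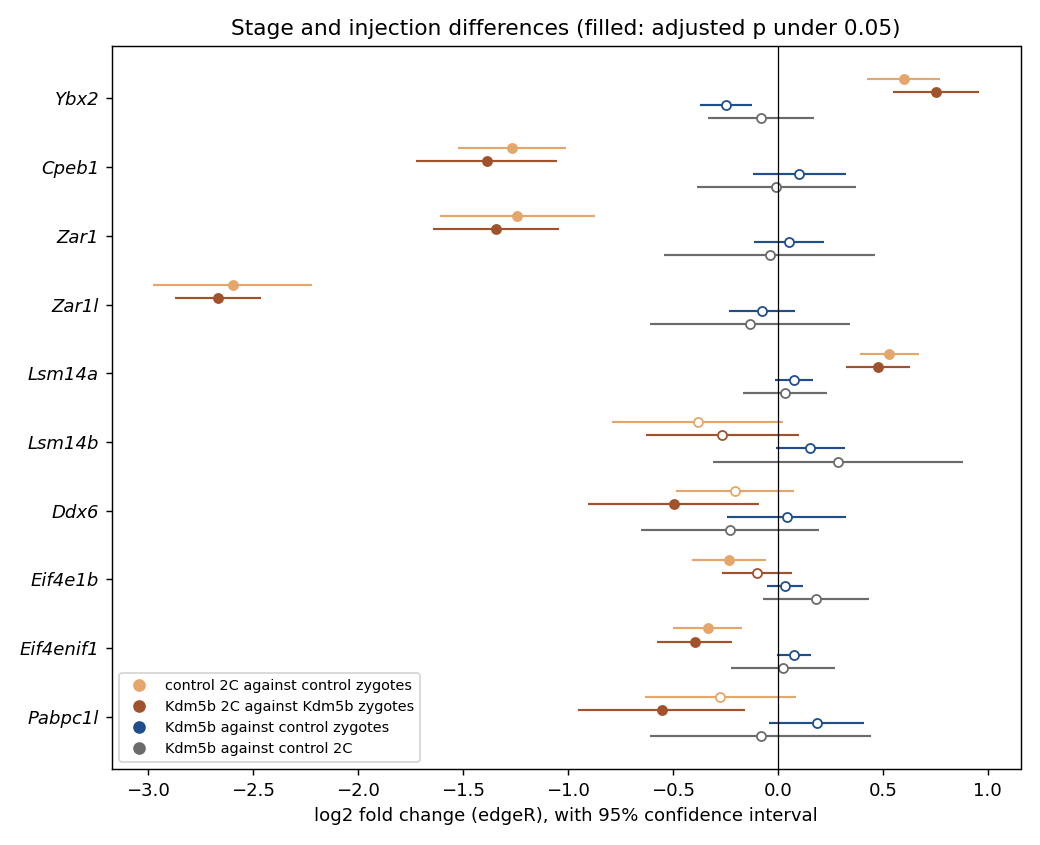
Log2 fold change with 95% confidence interval (edgeR) for each of the 10 genes in 4 comparisons; filled points have an adjusted p under 0.05. Stage differences of Zar1l lie at -2.59 and -2.67 and those of Ybx2 at 0.60 and 0.75, while no injection difference has a filled point.

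The injection comparisons set Kdm5b-yfp mRNA against water within a stage, so they cannot single out the KDM5B protein. Cells with no or very weak yellow fluorescence were left out, which selects among Kdm5b samples only. In zygotes no member passed (0 higher, 0 lower), where 0.0168% of the 11933 genes tested were higher and 0.117% lower in Kdm5b samples. At an unadjusted p under 0.05, 1 of 10 members and 1234 of the genes differed, and DESeq2's Wald test called 1 member. That member was Ybx2. It ran from 477 to 657 TPM in control zygotes and from 439.9 to 544 TPM in Kdm5b zygotes, and 6 of the 10 Kdm5b zygotes lay below the lowest control. Its log2 fold change was -0.24 (SE 0.060, 95% CI -0.37 to -0.12, edgeR unadjusted p = 3.39e-04, adjusted p = 0.10). The adjusted p was 0.0180 by DESeq2 and 0.0312 by edgeR without control zygote replicate 5, in which Ybx2 was lowest. Over the 7 other settings it ran from 0.0180 to 1, and with 1 zygote left out at a time from 0.0312 to 0.200, while the log2 fold change stayed between -0.28 and -0.23. In 2C samples the log2 fold change of Ybx2 was -0.08 (SE 0.12, 95% CI -0.33 to 0.17).

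For the 9 other members the zygote log2 fold changes lay between -0.08 (Zar1l) and 0.19 (Pabpc1l), with adjusted p from 0.514 upwards. The intervals were narrow for the abundant members. That of Eif4e1b ran from -0.05 to 0.12, that of Lsm14a from -0.01 to 0.17, and that of Eif4enif1 from -0.01 to 0.16. In 2C samples 0 members were higher and 0 lower (all 12244 genes 0% and 0.0245%), and 0 had an unadjusted p under 0.05, as against 1152 genes. DESeq2 called 0 as well. The precision was lower here, with an interval of -0.31 to 0.88 for Lsm14b and -0.61 to 0.35 for Zar1l. The strips were unbalanced, with 5 Kdm5b and 3 control 2C samples in strip 11, and 1 and 6 in strip 12. On strip 11 alone the log2 fold changes ran from -0.58 (Zar1l) to 0.18 (Lsm14b), with edgeR adjusted p from 0.313 upwards. With all 2C samples the value of Zar1l was -0.13. The test of the stage difference in Kdm5b minus that in controls called 0 members (0 of 10 also at an unadjusted p under 0.05), beside 0.109% of 13778 genes. The interval of that difference was -0.49 to 0.38 for Zar1l, -0.58 to 0.41 for Zar1 and -0.10 to 0.43 for Ybx2.

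Of 14 listed paralogs of the members 12 could be tested in controls. At the 2C stage 3 were higher and 3 lower (all genes 26.8% and 25.4%), and 6 did not pass. In the poly(A)-binding family, Pabpc1, the form used in somatic cells, went from 6.90 ± 2.46 TPM (SD, n = 10) in control zygotes to 42.6 ± 32.5 TPM (n = 9) in control 2C samples, a log2 fold change of 2.71 (SE 0.34, adjusted p = 2.47e-07). Its 2C values ran from 12.7 to 109.96 TPM, so its lowest 2C sample lay just above its highest zygote at 12.3 TPM. Reads that match several places were not counted, so any reads shared with near-identical copies of Pabpc1 are missing from its level. As counted, the mean of Pabpc1l (225 TPM) was above that of Pabpc1 at the 2C stage. Pabpc4 stood at 179 ± 11.9 TPM in control zygotes and 198 ± 43.6 TPM in control 2C samples. Its log2 fold change was 0.23 (SE 0.10, adjusted p = 0.0632). Pabpc2 and Pabpc6 were too low to be tested in controls. Pabpn1l, an oocyte form of the nuclear poly(A)-binding protein, went from 301 ± 59.1 to 40.5 ± 13.4 TPM (log2 fold change -2.80, SE 0.17, adjusted p = 3.53e-12), and Pabpn1 itself was higher (0.57, SE 0.11, adjusted p = 1.04e-04). In Kdm5b embryos 2 paralogs were higher and 4 lower at the 2C stage (all genes 29.3% and 29.5%). There the means of Pabpn1 were 345 TPM in zygotes and 350 TPM at 2C, and those of Pabpn1l 280 and 36.5 TPM. The Pabpc1 groups overlapped there, with 2.43 to 9.43 TPM in zygotes and 4.96 to 89.6 TPM at 2C. No paralog was called in Kdm5b against control 2C samples.

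In the CPEB family the members parted. Cpeb3 was lower like Cpeb1 (log2 fold change -0.55, SE 0.098, adjusted p = 3.66e-05), whereas Cpeb4, which binds related elements, was higher (0.61, SE 0.091, adjusted p = 3.24e-06), and Cpeb2, at about 3 TPM, had a value of 0.23 (adjusted p = 0.508). Cpeb1 and Cpeb4 stood at 111 and 106 TPM in control zygotes and at 43.5 and 153 TPM in control 2C samples. Among the cold-shock proteins Ybx3 was slightly lower (-0.19, SE 0.075, adjusted p = 0.0377) and Ybx1 had a value of 0.02 (adjusted p = 0.904). Ybx1 exceeded Ybx2 by mean TPM in control zygotes (1195 against 582) and in control 2C samples (1141 against 833). Among cap-binding proteins Eif4e, Eif4e2 and Eif4e3 had log2 fold changes of 0.06, -0.19 and 0.14, with adjusted p from 0.252 to 0.570. Eif4e stood at 159 ± 9.57 TPM in control zygotes, and Eif4e1b exceeded it there and at the 2C stage (156 ± 21.8 TPM).

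**Figure D3:**
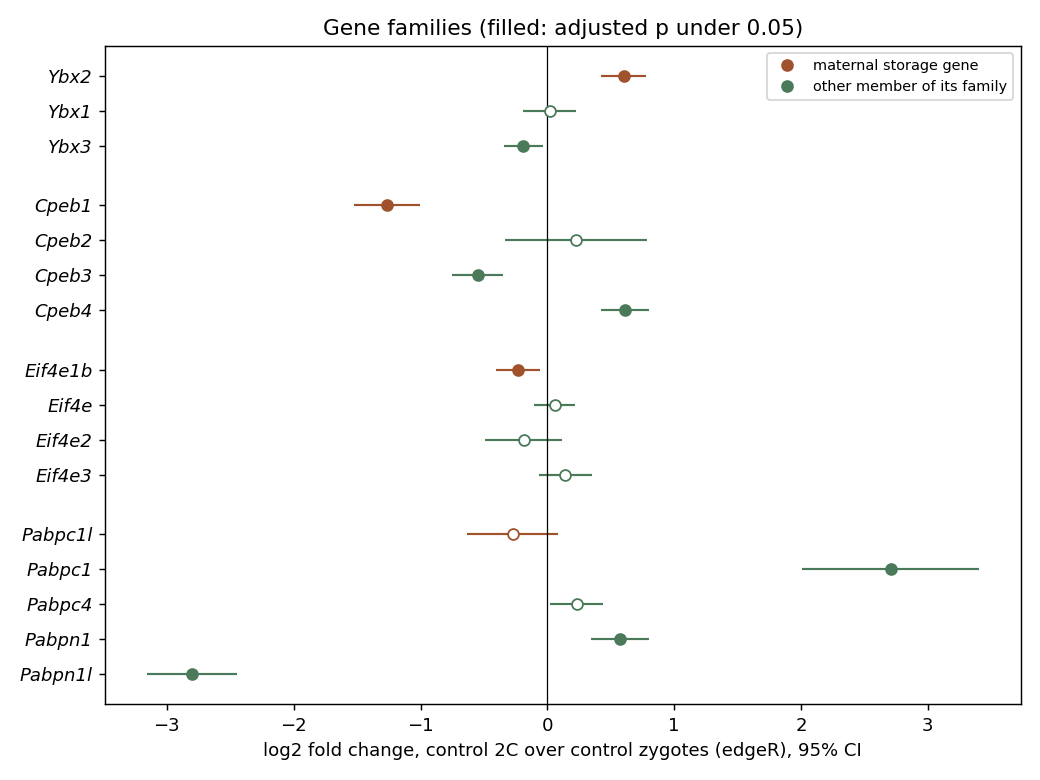
Log2 fold change between control 2C samples and control zygotes, with 95% confidence interval (edgeR), of 4 of the genes and the tested relatives in their families; filled points have an adjusted p under 0.05. Pabpc1 lies at 2.71 and Pabpn1l at -2.80, and Cpeb1 and Cpeb4 fall on opposite sides of 0.

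Other genes of the pathway were taken from lists of fixed size. In controls their counts stand beside 26.8% of all genes higher and 25.4% lower at the 2C stage. Of 10 decapping and P-body genes 9 were tested in controls, with 3 higher and 2 lower at the 2C stage, among them Patl2 (log2 fold change -1.39, SE 0.35, adjusted p = 0.00148), Edc4 (-1.30, SE 0.17, adjusted p = 5.70e-07) and Lsm1 (1.01, SE 0.20, adjusted p = 1.58e-04). Of 8 genes listed as polyadenylation machinery, not all of them particular to the cytoplasm, 1 was higher and 3 lower. The lower ones included the poly(A) polymerase gene Papolg (-2.11, SE 0.16, adjusted p = 7.28e-11) and Cpsf3, the cleavage endonuclease (-2.0, SE 0.22, adjusted p = 3.35e-08). The higher one, named after its value was seen, was Tent2 (Papd4 in the table), a cytoplasmic poly(A) polymerase (0.93, SE 0.093, adjusted p = 7.33e-09). Their median was -0.41, beside 0.02 for all genes. Of 16 tested genes for other RNA-binding regulators 6 were higher and 4 lower, with Igf2bp2 at -1.08 (SE 0.19, adjusted p = 3.41e-05) and Igf2bp1 at 1.05 (SE 0.44, adjusted p = 0.0472). Of 9 tested genes for cap-complex regulators 5 were higher and 2 lower, and Eif4ebp1, which encodes an inhibitor of eIF4E, had the highest value (2.19, SE 0.63, adjusted p = 0.00476). In Kdm5b zygotes against controls the same 4 lists and the paralogs held 2 calls, both lower (all genes 0.117%). The 2 genes, named after their values were seen, were Sympk, a scaffold of polyadenylation (-0.39, adjusted p = 0.0175), and Eif4g3, a cap-complex scaffold (-0.31, adjusted p = 0.0306). Neither call held in the fit on all 35 samples, which called 0 genes in zygotes. In Kdm5b against control 2C samples the same lists and the paralogs held 0 calls.

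The coefficient of variation (CV) between control samples was 15.1% in zygotes and 42.1% at 2C for Zar1, 16.6% and 40.6% for Zar1l, 14.7% and 49.6% for Lsm14b, and 17.8% and 38.6% for Pabpc1l. It was 4.52% and 10.7% for Lsm14a and 9.60% and 13.2% for Ybx2. Over the 2297 genes at 100 TPM or more in control zygotes, the median CV was 9.45% in control zygotes and 22.2% in control 2C samples, and the median ratio of the CVs was 2.22. The members' ratios ran from 1.37 (Ybx2) to 3.60 (Eif4e1b), on both sides of that median. In Kdm5b embryos the CV of Zar1l was 10.8% at 2C and 10.5% in zygotes. The differences in spread were not tested.

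Across the 9 control 2C samples, those rich in Zar1 were also rich in Lsm14b. Replicates 4 and 6 were lowest for both genes (158 and 147 TPM of Zar1, 268 and 316 TPM of Lsm14b), and replicates 5 and 1 were highest for both (480 and 467 TPM of Zar1, 1384 and 832 TPM of Lsm14b). On log2 TPM, Pearson's r was 0.92 (exact permutation p = 3.72e-04, adjusted p = 0.0396 over 180 relations, 45 gene pairs in each of 4 groups) and Spearman's rho 0.85 (exact permutation p = 0.00607, adjusted p = 0.273). Without the 2 samples farthest from the median of Zar1, r was 0.84 (n = 7). Within strip 12 r was 0.95 (n = 6), and among single intact embryos 0.95 (n = 6). Strip 11 held too few samples for a value. In the 6 Kdm5b 2C samples r was 0.85 (exact permutation p = 0.0375, adjusted p = 0.355) with rho 0.71 (exact permutation p = 0.136), and r was 0.63 and 0.72 in the 10 control and 10 Kdm5b zygotes. Among the 2296 other genes at 100 TPM or more, 0.305% had an r with Zar1 at least as high in control 2C samples and 7.14% in Kdm5b 2C samples, where the median r was 0.14 and 0.33. The points of a stage share the library day, and all share the TPM scale.

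**Figure D4:**
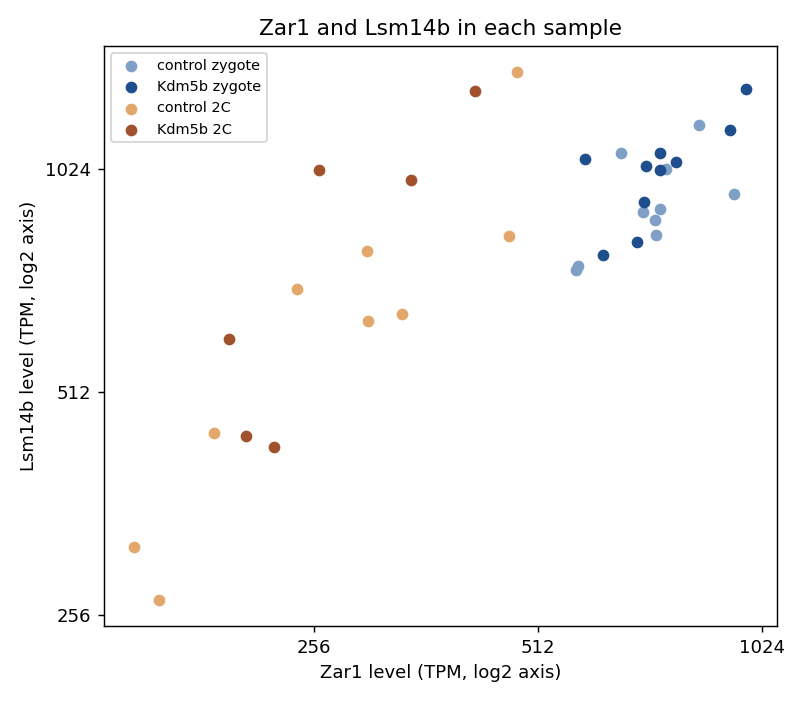
Level of Lsm14b against that of Zar1 in each sample (TPM, log2 axes), coloured by group; each point is 1 sample. The 2C samples run from 147 to 480 TPM of Zar1 along a rising band (r 0.92 in control and 0.85 in Kdm5b samples), and the zygotes sit to the right of it.

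The other pair whose Pearson's r passed the adjustment was Ybx2 and Ddx6 in control zygotes, where r was -0.90 (permutation p = 4.40e-04, adjusted p = 0.0396) and rho -0.84 (permutation p = 0.00412, adjusted p = 0.273). Without the 2 samples farthest from the median of Ybx2, r was -0.82 (n = 8). Replicate 5 held the least Ybx2 and the most Ddx6 (20.1 TPM), and replicate 3 the least Ddx6 (13.3 TPM) with 637 TPM of Ybx2. In Kdm5b zygotes r was -0.60 (permutation p = 0.0649), and in 2C samples it was 0.51 in controls and -0.18 in Kdm5b samples. The zygote strips held at most 4 samples of a group each, too few for a value within a strip.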

How the data were processed

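The authors deposited raw fragment counts per gene, a table of 24480 genes by 35 samples made with featureCounts 1.5.1 (paired, strand-specific, multi-mapping fragments not counted) after STAR 2.7.3a alignment to mm10, per the file headers and the submitters' processing notes, which also list fastp 0.21.0 and SAMtools 1.10. The libraries were made with the SMART-Seq Stranded kit. The repeat table was not used here.

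The Kdm5b row was removed. Each comparison was fitted on its 2 groups with edgeR 4.0.16 (filterByExpr, TMM, quasi-likelihood F test, Benjamini-Hochberg), and the difference of stage differences on all 35 samples. Calls needed an adjusted p under 0.05, and for the second count also an absolute log2 fold change over 1. TPM was computed from the counts and the deposited exon lengths. Alternatives were DESeq2 1.42.0 and its size factors, no filter, Kdm5b kept, all samples in 1 fit, the replicate number as a block, single embryos, index strips, and each replicate left out. The scripts were tested on simulated data. Replicates were separate embryos from batches pooled over several females, so p-values measure the spread between these samples. Relations between members used exact permutation tests, or 100000 resamples at n = 10. All 10 members and the paralogs were named, and of each other list at most 3 genes past both thresholds. Tent2, Sympk and Eif4g3 were named outside this rule, after their values were seen. The members and lists were chosen with earlier results of these data known. Sequences came from GENCODE M21, 1 transcript a gene (principal, then longest).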

Additional observations from a re-analysis of the deposited data

Results flagged for a closer look

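Of 40 sets of values (10 genes in 4 groups), 2 held a sample far from the others by Dixon's criterion, and chance gives about 1 in 20. Lsm14b in control 2C replicate 5 stood at 1384 TPM, and the nearest sample at 832 TPM. Ddx6 in Kdm5b zygote replicate 8 stood at 31.0 TPM, and the nearest at 21.2 TPM. Without the first sample the stage difference of Lsm14b in controls passed the threshold (log2 fold change -0.57, edgeR adjusted p = 0.00695). Without the second the stage difference of Ddx6 in Kdm5b embryos did not (-0.35, edgeR adjusted p = 0.0732). The test of a difference between the stage effects in Kdm5b and control embryos called 0 of 10 members.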

How the results depend on the processing

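The stage differences of Ybx2, Cpeb1, Zar1, Zar1l and Lsm14a kept their direction and their call in controls and in Kdm5b embryos under every alternative run. With each replicate left out in turn, the count of members lower at the 2C stage ran from 4 to 6 in both, the count higher stayed at 2, and the count lower in Kdm5b zygotes ran from 0 to 1. By DESeq2's Wald test 1 member (Ybx2) was lower in Kdm5b zygotes. Against the control 2C samples of strip 11 alone, chosen after seeing the data, 3 members were lower, Eif4e1b turned to 0.021 and Eif4enif1 lost its call (adjusted p = 0.0577). The log2 fold change of Pabpc1l was 0.085 (adjusted p = 0.704) against strip 11 alone and passed against strip 12 alone (-0.55, adjusted p = 0.00987). Eif4e1b in controls also lost its call with DESeq2 size factors (adjusted p = 0.0537), by DESeq2 (0.0524) and without control 2C replicate 6, 7 or 8. The cause was not tested. Same-numbered samples did not deviate together (correlations -0.18 to 0.10), so the replicate numbers do not pair them. With the replicate block Lsm14b passed in controls (-0.49, adjusted p = 0.0338), Ddx6 did not in Kdm5b embryos (-0.38, adjusted p = 0.0754), and no other member's call changed. With no filter on low counts Lsm14b passed in controls (-0.47, adjusted p = 0.0456). Over all genes, DESeq2 called 20 higher and 82 lower in Kdm5b zygotes, against 2 and 14 by edgeR, and 19 higher and 86 lower in Kdm5b 2C samples, against 0 and 3. In Kdm5b against control 2C samples the fit on all 35 samples called 197 higher and 331 lower, that with index strip as a covariate 68 and 185, that on strip 11 alone 10 and 101, that with the replicate block 0 and 19, that with no filter 1 and 8, and that on single intact embryos 0 and 0. In zygotes the fit on all 35 samples called 0 and 0. For the difference of stage differences (1 higher and 14 lower) DESeq2 called 18 and 69, and single intact embryos gave 4 and 32. No member was called in these fits, apart from Ybx2 by DESeq2 in zygotes.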
